A study of Mus musculus with 9 samples.

Results

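The genes of the core circadian clock followed here in kidney cortex of tumour-bearing and wild-type mice were Clock, Arntl, Per1, Per2, Cry1, Cry2, Nr1d1, Nr1d2, Hlf and Usp2. They are 10 of the 14052 genes in the table of read counts, found by symbol from their Ensembl identifiers, and all 10 had a row and passed the filter on low counts. They were picked by name with earlier results of these data known, so their tumour against normal values are a description and carry no test. The tumour group holds 5 areas (L4, R2, R3, R4 and R5) of kidney tumour in the renal cortex of mice with floxed Vhl and floxed Pbrm1 alleles and Ksp-Cre, on a mixed background of C57BL/6, BALB/c and 129. The normal group holds 4 areas (L1, L2, R1 and R2) of renal cortex of wild-type C57BL/6 mice. All mice were fed a normal diet and were about 1 year old. The Ksp promoter, which drives the kidney-specific cadherin gene Cdh16, directs the recombinase to tubule epithelium, while each area also holds other cells. The descriptions of the tumour areas all carry 1 number and those of the normal areas another, and a group may therefore come from a single mouse, in which case the spread between its areas is spread within that mouse. The standard errors and p-values below would then measure differences between areas and not between mice. The labels give no hour of collection. Hour, animal, strain and genotype therefore cannot be told apart in any value below.

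The clock is a loop of transcription and feedback that runs in nearly every cell and takes about a day. CLOCK and BMAL1, the product of Arntl, bind as a pair to E-boxes and switch on the Per, Cry and Nr1d genes. PER and CRY proteins then hold the pair in check, while the REV-ERB receptors, encoded by Nr1d1 and Nr1d2, repress Arntl at ROR elements, where ROR receptors activate it. Transcript levels of most of these genes cycle over the day, with Arntl and Nr1d1 in opposite phase in mouse tissues. HLF is one of the PAR bZIP factors that carry the rhythm to D-boxes in output genes, and USP2 is a ubiquitin-specific protease with a cycling transcript that acts on clock proteins. In the kidney the clock times the handling of salt and water.

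The start regions of Per1 and Cry1 are shown because both genes belong to the repressor arm, were low in the tumour areas, and hold an E-box before the start. The letters searched were CACGTG (E-box), TTATGTAA and TTATGCAA (D-box), TAGGTCA and TGGGTCA (ROR element core) and TGACGTCA (cAMP element), on both strands. The windows were RefSeq's, in build GRCm38.p6, from 250 bases before to 50 after each start. Windows were found for 9 of the 10 genes, 13 in all, and not for Per2. Capitals mark the letters found. The first 2 sequences are the 250 bases before a start, and the last 2 are 30 bases around a match.
Per1, chr11:69098699-69098948, plus strand: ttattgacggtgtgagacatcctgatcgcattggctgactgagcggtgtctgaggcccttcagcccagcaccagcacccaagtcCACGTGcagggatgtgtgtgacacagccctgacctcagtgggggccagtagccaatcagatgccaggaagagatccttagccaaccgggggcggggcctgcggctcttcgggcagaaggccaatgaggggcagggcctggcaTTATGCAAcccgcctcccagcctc
Cry1, chr10:85185055-85185304, minus strand: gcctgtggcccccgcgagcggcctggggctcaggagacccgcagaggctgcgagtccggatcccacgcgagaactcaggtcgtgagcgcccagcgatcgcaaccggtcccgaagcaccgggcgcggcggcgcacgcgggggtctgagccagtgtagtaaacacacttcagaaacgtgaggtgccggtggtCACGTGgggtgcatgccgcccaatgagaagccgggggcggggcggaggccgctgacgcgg
Arntl, chr7:113207530-113207559, plus strand: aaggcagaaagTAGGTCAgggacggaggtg
Hlf, chr11:90390908-90390937, minus strand: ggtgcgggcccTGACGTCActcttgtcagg

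The E-box lay with its first base 166 bases before the start in Per1 and 60 bases before it in Cry1, and Per1 also held a D-box 24 bases before the start. The ROR element core of Arntl began at base 31 after the second of its starts, in transcribed sequence, and the cAMP element of Hlf began 9 bases before the start. Across all 32851 windows the E-box was present in 7.15%, TTATGTAA in 0.938%, TTATGCAA in 0.743%, TAGGTCA in 2.61%, TGGGTCA in 3.98% and TGACGTCA in 1.79%. No searched letters were found in the windows of Clock, Cry2, Nr1d1, Nr1d2 or Usp2. These matches describe the letters in short windows and not bound sites.

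Counted reads ran from 5143527 to 8250261 per library, and 7020 genes were tested with edgeR. CPM below are read counts scaled to the library total after TMM correction, and log2 fold changes are tumour over normal with the standard error of the edgeR fit. Vhl stood at 45.1 to 75.7 CPM in the tumour and 97.7 to 108 CPM in the normal areas (log2 fold change -0.79 ± 0.13, adjusted p = 0.000248 in edgeR), and Pbrm1 at 106 to 162 CPM in the tumour against 141 to 164 CPM in the normal areas (-0.19 ± 0.11, adjusted p = 0.142 in edgeR). Gene counts can include exons outside a deleted part. Zero counts in all libraries were listed for 3989 genes (28.4%). The widely expressed clock-linked genes Timeless and Hdac3 were among these, and a listed 0 is therefore not read as silence.

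In the tumour areas the repressor arm, the Clock gene and the output genes Hlf and Usp2 were low. Nr1d1 was high, Nr1d2 was somewhat low and Arntl was close to its normal level. No member overlapped between the groups: 2 lay above and 8 below the normal areas. Over all tested genes the groups did not overlap in 67.8%, with tumour above in 34.8% and below in 33.0%, and 74.6% passed an adjusted p of 0.05 in edgeR, 39.3% higher and 35.3% lower. Nothing is read from the members' count beside these shares. The members' log2 fold changes ran from -3.58 (Per2) to 3.02 (Nr1d1), while the median size of change over all tested genes was 0.59 (absolute log2 fold change) and 5.2% of them changed by 3 or more on that scale.

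**Figure D1:**
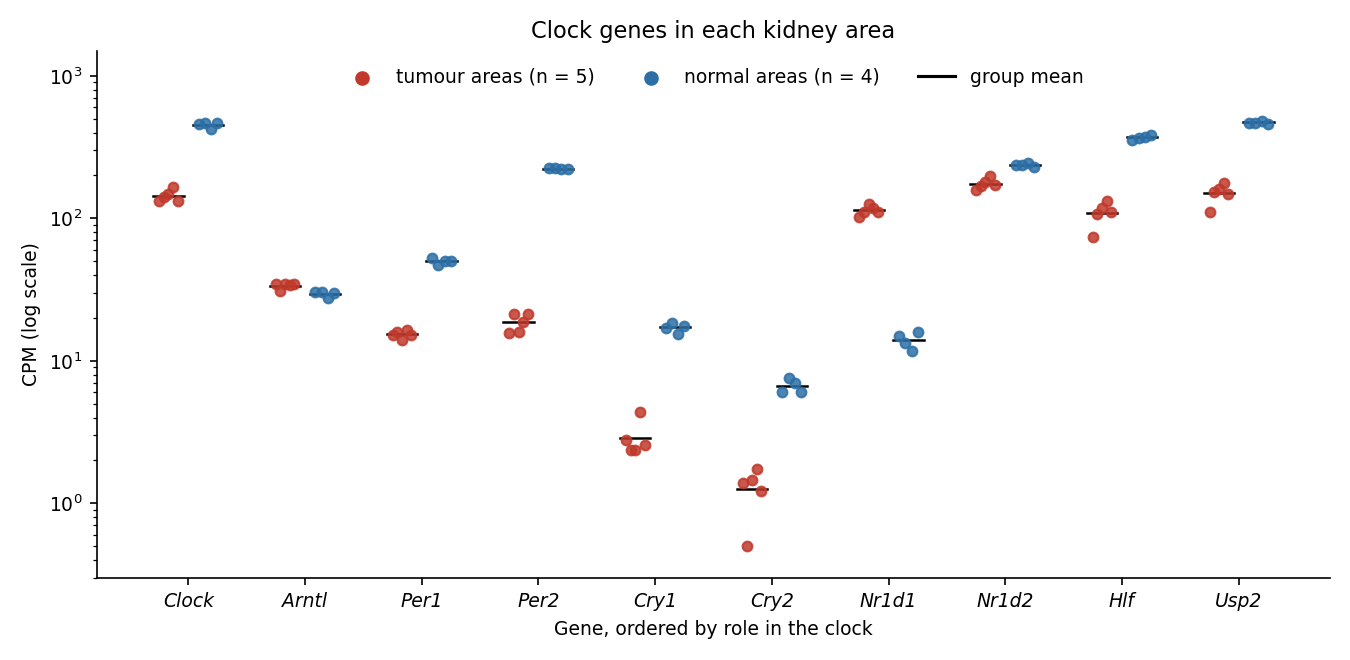
CPM (log scale) of the 10 clock genes in each area, with tumour areas (red, n = 5) left of normal areas (blue, n = 4) and black lines at the group means. Per2 lies at 15.7 to 21.3 CPM in tumour against 221 to 224 CPM in normal areas, Nr1d1 at 102 to 127 CPM in tumour against 11.8 to 15.99 CPM in normal areas, and the Arntl groups lie next to each other.

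Of the activating pair, Clock was low in tumour while Arntl was near its normal level. Clock, which encodes the partner of BMAL1, stood at 132, 140.5, 149, 165.5 and 132.5 CPM in tumour areas L4, R2, R3, R4 and R5, against 459, 465, 421 and 469.7 CPM in normal areas L1, L2, R1 and R2. Every tumour area was far below every normal area, and the log2 fold change was -1.66 ± 0.07. Arntl stood at 34.7, 30.7, 34.5, 33.8 and 34.4 CPM in the tumour areas, in the same order, against 30.3, 30.4, 27.6 and 29.96 CPM in the normal areas. The lowest tumour area, R2, was only just above the highest normal area, and the log2 fold change was 0.19 ± 0.07. With libraries scaled by size alone it was 0.48. Arntl was past an adjusted p of 0.05 in 7 of 19 alternative settings, and its small difference is not read as a rise. The ratio of Arntl to Clock reads within a library, which does not depend on how libraries are scaled, was 0.235 ± 0.0255 in tumour areas (SD, n = 5) and 0.0652 ± 0.00096 in normal areas (SD, n = 4). That is a 3.61-fold higher ratio in tumour.

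Among the repressors, Per2 differed most. Per2 held 15.7, 21.3, 15.98, 18.9 and 21.3 CPM in the tumour areas, against 224, 223.9, 222 and 221 CPM in the normal areas. The normal areas were within a few CPM of each other, and the mean was 12.0-fold lower in tumour (log2 fold change -3.58 ± 0.09). Per1, which also responds to glucocorticoids and to acute stimuli, held 15.2, 15.9, 13.98, 16.55 and 15.1 CPM in the tumour areas, against 52.6, 47.2, 50.5 and 50.4 CPM in the normal areas. The tumour mean of Per1 was 3.27-fold lower (-1.71 ± 0.08), a smaller gap than for Per2, and the groups were well apart. The ratio of Per2 to Per1 reads was 1.21 ± 0.156 in tumour (SD, n = 5) and 4.45 ± 0.205 in normal areas (SD, n = 4).

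Both cryptochromes, which bind PER proteins and block the activating pair, were counted with few reads. Cry1 had 20, 14, 13, 30 and 17 reads in the tumour areas (2.78, 2.35, 2.36, 4.36 and 2.59 CPM), against 79, 135, 93 and 87 reads in the normal areas (17.1, 18.4, 15.45 and 17.6 CPM). Tumour R4 was the highest tumour area and still far under the normal areas (log2 fold change -2.55 ± 0.18). Cry2 had 10, 3, 8, 12 and 8 reads in the tumour areas, against 28, 56, 42 and 30 reads in the normal areas (1.26 ± 0.464 CPM in tumour, SD, n = 5, against 6.69 ± 0.766 CPM in normal, SD, n = 4). The log2 fold change of Cry2 was -2.38 ± 0.25, the widest error of the members. Cry2 passed the filter through the normal areas, since 1 of 5 tumour and 4 of 4 normal libraries reached its limit of 1.68 CPM, so a lower tumour value was built into its passing. The ratio of Cry1 to Cry2 reads was 2.58 ± 1.21 in tumour (SD, n = 5) and 2.59 ± 0.328 in normal areas (SD, n = 4) and overlapped between the groups. The highest ratio, 4.67, came from tumour R2 with its 3 Cry2 reads.

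Of the REV-ERB paralogs, Nr1d1 was high in tumour and Nr1d2 somewhat low. Nr1d1 held 102, 111, 127, 118 and 110.5 CPM in the tumour areas, against 14.9, 13.4, 11.8 and 15.99 CPM in the normal areas. All tumour areas were several times above all normal areas, the mean was 8.11-fold higher, and the log2 fold change was 3.02 ± 0.10. Nr1d2 held 157, 168, 179, 198 and 170.4 CPM in the tumour areas, against 236, 235.7, 243.5 and 231 CPM in the normal areas (-0.44 ± 0.07). The tumour areas were lower by a modest margin, and with libraries scaled by size alone the log2 fold change was -0.15. The ratio of Nr1d1 to Nr1d2 reads was 0.652 ± 0.0403 in tumour (SD, n = 5) and 0.0594 ± 0.00895 in normal areas (SD, n = 4), 11-fold higher in tumour.

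Nr1d1 shares sequence with Thra, the gene of thyroid hormone receptor alpha on the opposite strand. In the GENCODE M21 annotation 263 of 3077 exonic bases of Nr1d1 (8.55%) lie within Thra exons, and the library kit does not mark strand, so reads there cannot be assigned to 1 gene. Thra itself was higher in tumour, at 173 to 215 CPM in tumour areas against 68.6 to 70.3 CPM in normal areas (log2 fold change 1.48, adjusted p = 5.89e-08 in edgeR). The ratio of Nr1d1 to Thra reads was 0.517 to 0.64 in tumour areas and 0.172 to 0.232 in normal areas, 2.92-fold higher on average in tumour. Cry2, Arntl and Usp2 share 4.67%, 0.439% and 4.15% of their exonic bases with opposite-strand genes that have no row here. The other 6 members share none in that annotation. The annotation used for the counts is not given, so the overlaps that applied to them may differ.

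**Figure D2:**
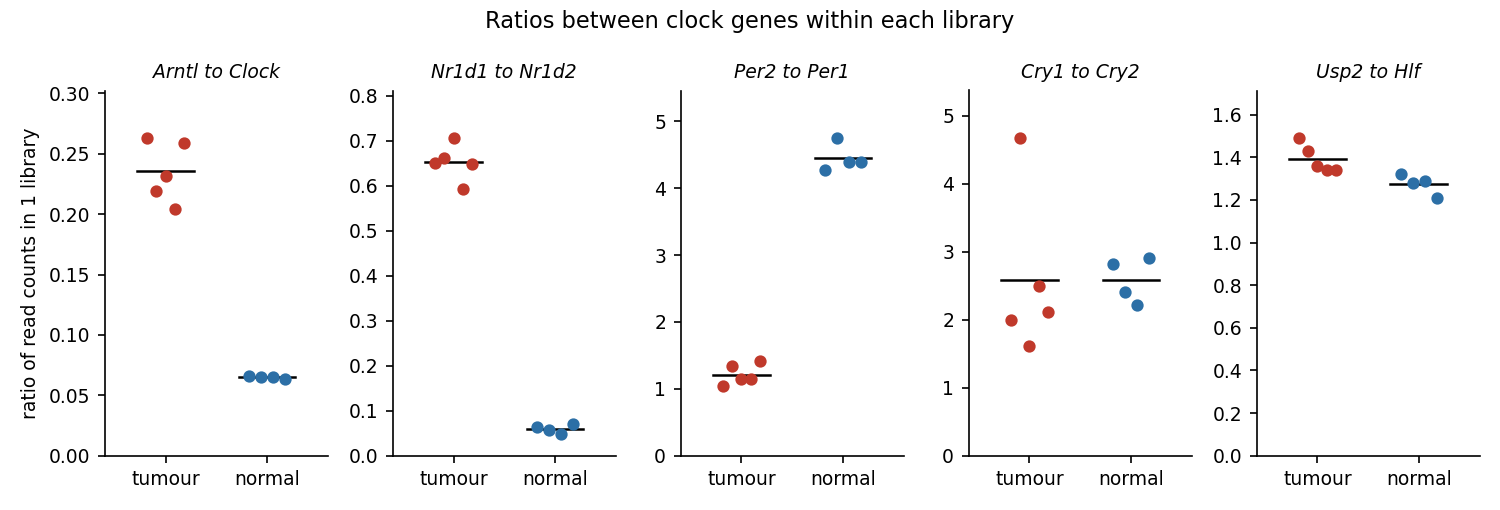
Ratio of read counts between pairs of clock genes within each library, for tumour areas (red, left, n = 5) and normal areas (blue, right, n = 4), with black lines at group means. Arntl to Clock and Nr1d1 to Nr1d2 are higher in every tumour area, Per2 to Per1 is lower, and Cry1 to Cry2 overlaps. Usp2 to Hlf is slightly higher in every tumour area.

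The output genes Hlf and Usp2 were low to a like extent. Hlf held 73.9, 107, 117.5, 132 and 110.5 CPM in the tumour areas, against 357, 367, 374 and 382 CPM in the normal areas (log2 fold change -1.78 ± 0.13). L4 was the lowest tumour area and R4 the highest. Usp2 held 110.2, 152.5, 159.8, 177 and 148 CPM in the tumour areas, against 470.4, 469, 484 and 462 CPM in the normal areas (-1.66 ± 0.11). L4 and R4 were again the extremes. The ratio of Usp2 to Hlf reads was 1.39 ± 0.0666 in tumour (SD, n = 5) and 1.27 ± 0.0461 in normal areas (SD, n = 4). All tumour areas (1.34 to 1.49) lay just above all normal areas (1.21 to 1.32).

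The spread of the members' CPM among areas of a group was set beside that of genes of like level. In tumour areas the coefficient of variation was 4.93% for Arntl and 6.35% for Per1, against medians of 12.7% and 17.2% over the 1931 and 1605 tested genes with a mean CPM within 2-fold of theirs. Hlf and Usp2, at 19.9% and 16.4%, varied more than such genes (medians 8.99% and 8.82%). In normal areas Per2 varied by 0.64%, and 0.899% of 1446 genes of like level varied less. Clock varied by 4.94% in normal areas, against a median of 2.6%.

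Hlf and Nr1d2 followed the same order over the tumour areas as the summed level of 6 proximal tubule genes (Slc34a1, Lrp2, Cubn, Slc5a2, Slc22a6 and Slc13a3), with L4 lowest, then R2, R5, R3 and R4. That sum was 6440, 8410, 11300, 13000 and 10500 CPM in L4, R2, R3, R4 and R5, against 26000, 27400, 28100 and 27600 CPM in the normal areas, a ratio of means of 0.364. Clock and Usp2 shared the extremes and differed from it in the order of R2 and R5. Per1, Per2, Cry1, Cry2, Arntl and Nr1d1 did not follow that order. Arntl was highest in L4, Nr1d1 in R3, and Per2 in R2 and R5. Per 1000 CPM of these 6 genes, a measure chosen after the values were seen, Clock came to 12.6 to 20.5 CPM in tumour against 15 to 17.7 CPM in normal areas, and Usp2 to 13.6 to 18.1 CPM in tumour against 16.7 to 18.1 CPM in normal areas. Per1 came to 1.24 to 2.36 CPM in tumour against 1.72 to 2.02 CPM in normal areas, a ratio of means of 0.889. All 3 genes overlapped between the groups on this scale, but only through L4 and R2, the areas with the lowest tubule sums. Areas R3, R4 and R5 lay below every normal area for each gene. They stood at 13.2, 12.7 and 12.6 CPM for Clock, 14.2, 13.6 and 14.1 CPM for Usp2, and 1.24, 1.27 and 1.43 CPM for Per1. Hlf came to 10.2 to 12.7 CPM in tumour against 13.3 to 13.9 CPM in normal areas. Per2, at 1.42 to 2.53 CPM in tumour against 7.92 to 8.64 CPM in normal areas, was well below. Nr1d1, at 9.04 to 15.9 CPM in tumour against 0.42 to 0.58 CPM in normal areas, was above. The ratio of tumour to normal means was 0.477 for Cry1 and 0.534 for Cry2, and it was 3.31 for Arntl and 2.11 for Nr1d2, the opposite of the direction of Nr1d2 in CPM.

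The androgen-responsive gene Kap, the seventh gene of the list, stood at 24070 ± 4910 CPM in tumour and 24710 ± 578 CPM in normal areas (SD, n = 5 and n = 4) and did not pass in edgeR, while the other 6 fell. With Kap in the sum, which was then 22700 to 41900 CPM in tumour and 51300 to 53100 CPM in normal areas, the ratio of tumour to normal means was 0.5 for Clock, 0.491 for Usp2, 0.448 for Hlf and 0.489 for Per1, and the groups did not overlap. It was 0.264 for Cry1, 0.297 for Cry2, 1.82 for Arntl and 1.16 for Nr1d2. The values per tubule transcript therefore differed by which genes stood for the tubule. In bulk samples fewer cells of a type and less RNA per cell cannot be told apart.

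**Figure D3:**
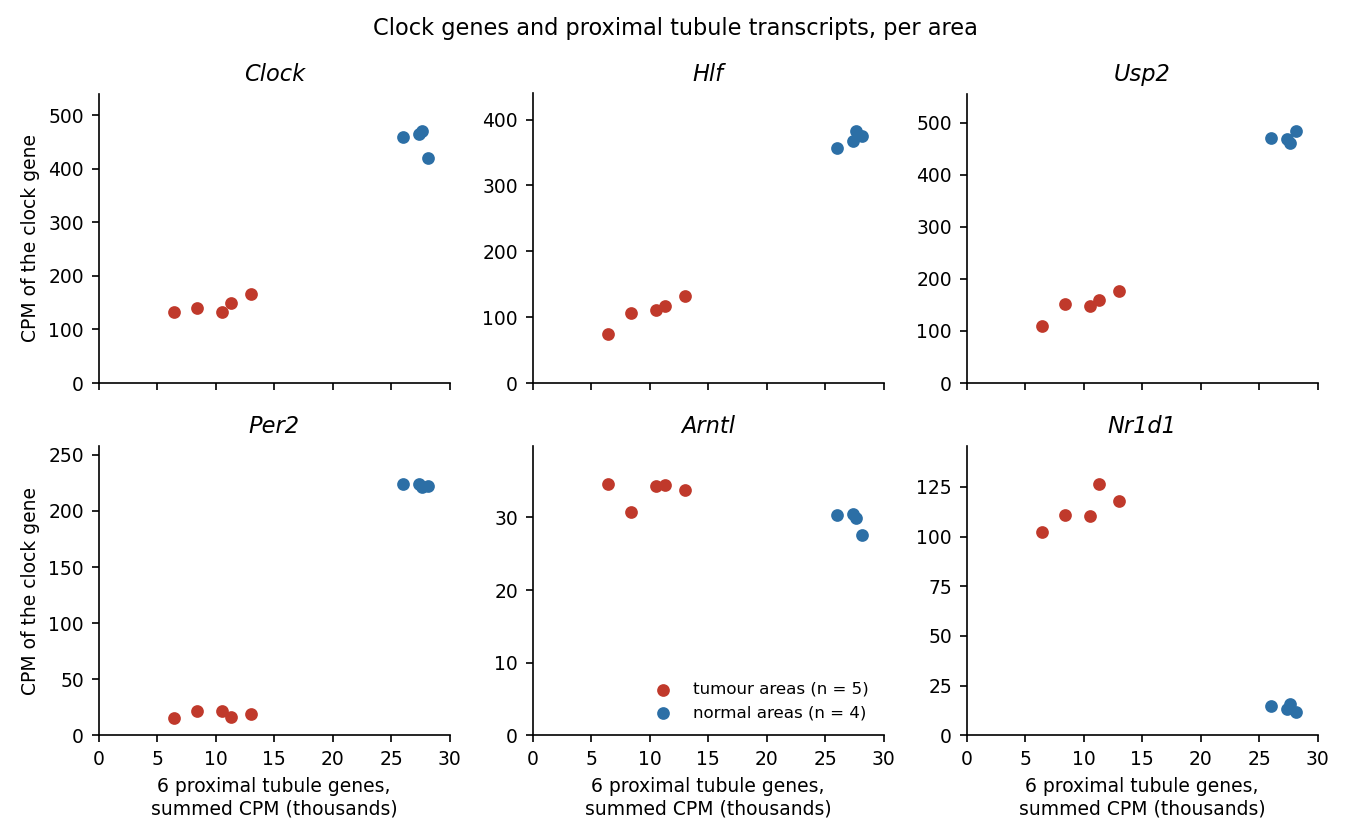
CPM of 6 clock genes in each area against the summed CPM of 6 proximal tubule genes (axis in units of 1000 CPM), with tumour areas in red (n = 5) and normal areas in blue (n = 4). Clock, Hlf and Usp2 are low where the tubule sum is low, Per2 is near the bottom in all tumour areas, Arntl differs little in CPM, and Nr1d1 is high in tumour areas alone.

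Other cell types moved with the groups too, and their part in the members' values was not tested. Of 6 distal nephron genes 5 fell in edgeR, and Umod, at 3251 ± 1520 CPM in tumour against 5445 ± 403 CPM in normal areas (SD, n = 5 and n = 4), did not pass. Leukocyte genes rose in 5 of 6 tested, with a sum of 1130 to 2700 CPM in tumour against 79.9 to 106 CPM in normal areas, although Ptprc was listed at 0 in all 9 libraries. Urothelial genes summed to 39.2 to 1210 CPM in tumour against 0.498 to 5.32 CPM in normal areas. The 5 that were tested rose, but all of them, like the leukocyte genes Cd79b and Itgam, passed the filter through the tumour areas, so their count is no support. Fibroblast genes rose in 3 and fell in 1 of 4 tested, with sums of 822 to 2540 CPM in tumour against 188 to 206 CPM in normal areas. The sums of these 3 lists were highest in L4. Endothelial genes fell in 2 of 3 tested, with sums of 322 to 403 CPM in tumour against 475 to 497 CPM in normal areas. For fat, the single tested gene Plin1 did not pass, and the sums were 0.336 to 144 CPM in tumour against 1.62 to 6.41 CPM in normal areas. Without tumour areas L4 and R5, which carried the most urothelial and fat transcripts, all 10 members kept their direction.

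Further genes of the clock were taken from 3 lists of 56 genes in all, of which 28 were tested, 9 had no row and 19 had too few counts. At the edgeR threshold of 0.05 for the adjusted p, 7 of the 28 rose (25.0%) and 16 fell (57.1%) in tumour, against 39.3% and 35.3% of all tested genes, and their median log2 fold change was -0.27 against 0.06. Of those that rose, Arntl2 and Rgs16 passed the filter through the tumour areas, so a higher tumour value was built into their passing. With libraries scaled by size alone 10 rose and 13 fell, where 3735 of the 7020 tested genes were higher and 1689 lower.

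Of 15 other loop factors 4 were tested, and 2 rose, 1 fell and 1 did not pass. Rora, the ROR receptor that activates Arntl, stood at 218.5, 269.8, 291.6, 302.9 and 265.3 CPM in the tumour areas, against 693.7, 722.8, 671 and 681.8 CPM in the normal areas (-1.36 ± 0.09, adjusted p = 4.3e-07 in edgeR). It was lower in all tumour areas, again with L4 lowest and R4 highest, and per 1000 CPM of the 6 tubule genes it came to 23.3 to 33.9 CPM in tumour against 23.9 to 26.7 CPM in normal areas. With Kap among the tubule genes it came to 7.23 to 9.63 CPM in tumour against 12.6 to 14.1 CPM in normal areas, without overlap. Arntl2, the paralog of Arntl, rose to 4.10 ± 2.10 CPM in tumour, against 1.16 ± 0.424 CPM in normal areas (1.79 ± 0.47, adjusted p = 0.00546 in edgeR). Its groups overlapped, and it passed the filter through the tumour areas (4 of 5 tumour and 0 of 4 normal libraries), so a higher tumour value was built into its passing. It did not pass when the letter L areas were left out (adjusted p = 0.0789 in edgeR), and it fell under the filter on low counts without any 1 of tumour L4, R2, R3 and R5. Tipin, the partner of TIMELESS at replication forks, rose by 0.75 ± 0.13. Tef, a PAR bZIP factor like HLF, stood at 18.04 ± 2.99 CPM in tumour against 16.2 ± 2.24 CPM in normal areas and did not pass (0.15 ± 0.15, adjusted p = 0.377 in edgeR), though it passed without L4 and R5 (0.33) and with library size alone (0.44). Dbp and Bhlhe40 had 1 read each over all libraries, Ciart had 16, Cipc and Timeless had 0, and Per3, Npas2, Nfil3 and Bhlhe41 had no row. Rorb was too low to test, with 52, 0, 2, 3 and 4 reads in the tumour areas, against 5, 13, 11 and 14 in the normal areas.

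Among genes for proteins that modify clock proteins or work with them, 15 of 23 were tested, of which 9 fell, 2 rose and 4 did not pass. Prkaa2, a catalytic subunit of the energy sensor AMPK, which marks CRY1 for breakdown, stood at 559.8 ± 133 CPM in tumour and 1724 ± 59.2 CPM in normal areas (SD, n = 5 and n = 4, -1.62 ± 0.15, adjusted p = 5.66e-06 in edgeR). Ncor1, the corepressor recruited by the REV-ERB receptors, stood at 67.7 ± 7.49 CPM in tumour against 161 ± 5.93 CPM in normal areas (-1.25 ± 0.08). Ep300, an acetyltransferase that works with CLOCK and BMAL1, fell by 0.79 ± 0.05 on the log2 scale, and Ppargc1a, a coactivator of the ROR receptors, by 0.78 ± 0.11. Csnk1e, a kinase of the PER proteins, rose (7.31 ± 0.732 CPM in tumour against 4.54 ± 1.04 CPM in normal areas, 0.69 ± 0.18), and Nono, an RNA-binding partner of the PER proteins, rose by 0.30 ± 0.06. Gsk3b, Prkaa1, Sfpq, Crebbp and Wdr5 fell by 0.71, 0.51, 0.33, 0.20 and 0.15 on the log2 scale. Ddb1, Csnk2a1, Btrc and Kmt2a did not pass, with adjusted p of 0.426, 0.0722, 0.347 and 0.129 in edgeR. Csnk2a1 passed as lower with RLE scaling (adjusted p = 0.0318 in edgeR), with DESeq2 (0.0134), with the area letter in the fit (0.0359) and without tumour R4 (0.0382), and as higher with library size alone (0.00524). Kmt2a passed as lower without tumour R5 (0.0269) and without L4 and R5 (0.0128), and Ddb1 as higher with library size alone (6.96e-05). The falls of Wdr5, Crebbp and Sfpq did not pass with library size alone, where Wdr5 read 0.14 and Crebbp 0.09 higher. Wdr5 also did not pass without normal L1 (adjusted p = 0.0582 in edgeR) or normal R1 (0.0595), with upper quartile scaling (0.136) or without the letter L areas (0.0811). Csnk1d (9 reads), Usp7 (3), Fbxl21, Fbxw7 and Hdac3 (0 each) were not tested, and Fbxw11 and Sirt1 had no row.

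Rhythmic output genes split, with 6 of 9 tested lower and 3 higher, from a list of 18. Slc9a3, the sodium-proton exchanger of the proximal tubule, stood at 9.40 ± 2.86 CPM in tumour and 68.0 ± 7.48 CPM in normal areas (SD, n = 5 and n = 4, -2.85 ± 0.19, adjusted p = 5.41e-07 in edgeR). Wee1, a cell cycle kinase driven through E-boxes in mouse liver, stood at 5.12 ± 0.834 CPM in tumour against 24.6 ± 1.41 CPM in normal areas (-2.27 ± 0.13), and Lonrf3 fell by 2.39 ± 0.23 on the log2 scale. Nampt, the enzyme of NAD salvage, fell by 1.07 ± 0.08, and Coq10b and Avpr1a fell by 0.97 and 0.79. Among those that rose, Rgs16, a regulator of G protein signalling, held 33.1, 20.8, 23.6, 12.2 and 27.4 CPM in the tumour areas, against 1.51, 1.64, 2.33 and 1.82 CPM in the normal areas (3.66 ± 0.32, adjusted p = 3.12e-06 in edgeR). Rgs16 too passed the filter through the tumour areas, with 5 of 5 tumour and 1 of 4 normal libraries. Edn1, endothelin 1, rose by 1.16 ± 0.19, and Cdkn1a, the cell cycle inhibitor p21 and a target of REV-ERB in mouse liver, by 0.93 ± 0.08. Avpr2, with 50 reads, Fkbp5, with 53, and Noct, Alas1, Tsc22d3, Sgk1 and Scnn1a, with 0, were not tested, and Por and Ddit4 had no row. Fkbp5, a target of the glucocorticoid receptor as Per1 is, had 0, 0, 1, 2 and 2 reads in the tumour areas, against 7, 17, 18 and 6 in the normal areas.

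**Figure D4:**
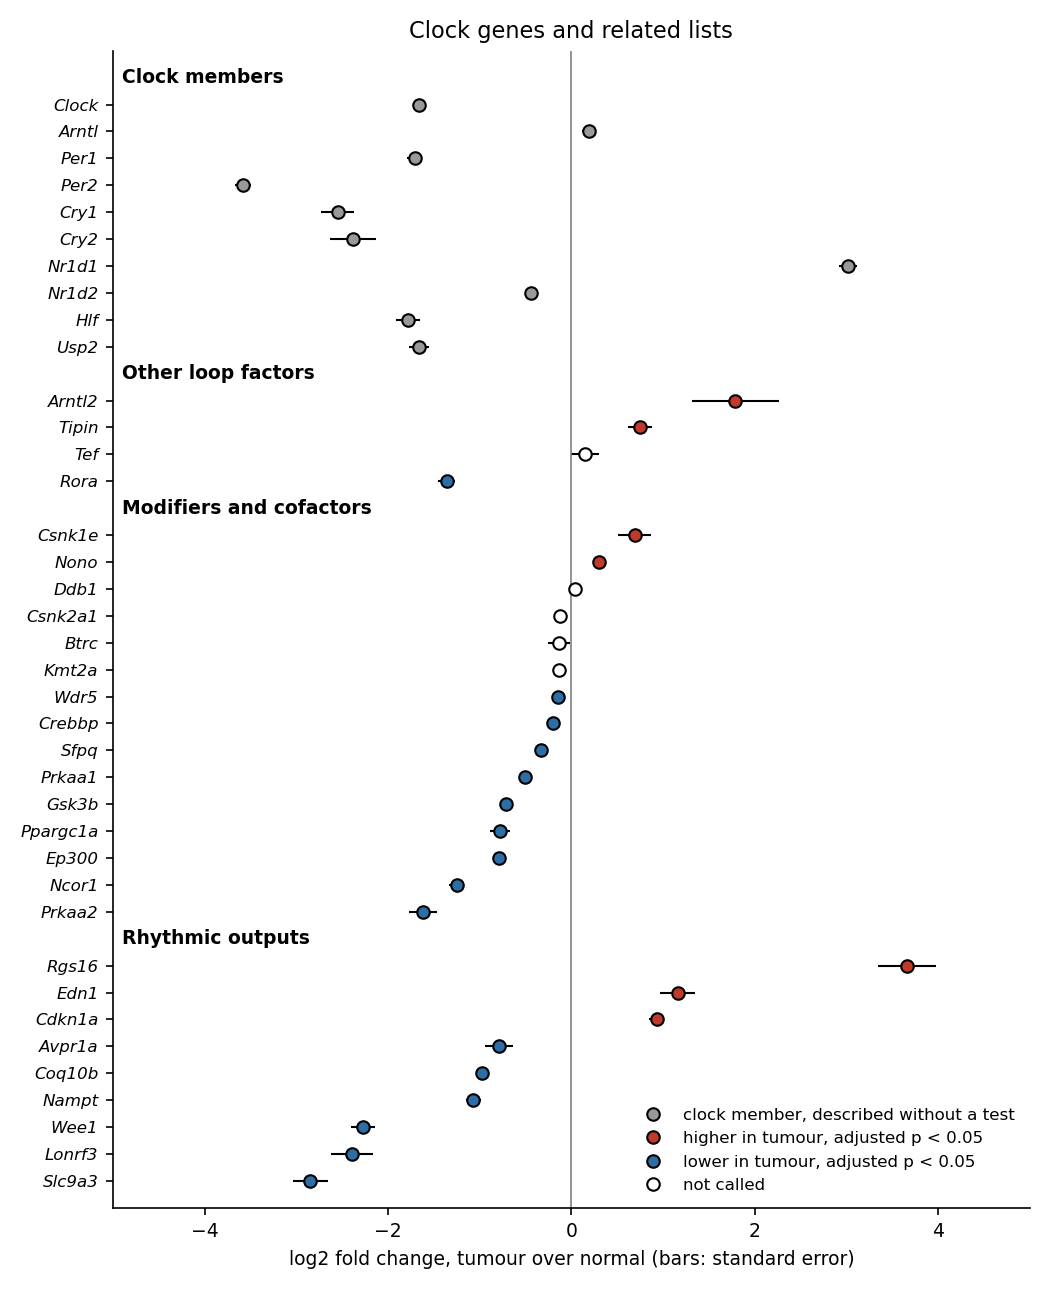
Log2 fold change, tumour over normal, with standard errors, for the 10 clock members (grey, described without a test) and for the tested genes of 3 related lists (red, higher; blue, lower; white, not called in edgeR). Per2, at -3.58, and Nr1d1, at 3.02, lie farthest out among the members, and Rgs16, at 3.66, and Slc9a3, at -2.85, among the outputs.

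Of 12 immediate early genes, which respond quickly to acute stimuli and are listed because Per1 can behave like one, 3 had a row and 2 were tested. Both rose, Atf3 by 2.69 ± 0.24 and Nr4a1 by 1.75 ± 0.17 (adjusted p = 3.52e-06 and 6.84e-06 in edgeR), while Per1 was low.

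The profiles most like those of Arntl and Nr1d1 over the 9 areas were found by the mean absolute difference of log2 CPM, each gene centred on its own mean. For Arntl they were Cmas, Trappc4 (0.035 each) and Elp3 (0.04), genes whose own log2 fold changes were 0.18, 0.12 and 0.15. For Nr1d1 they were Aldh1l2 (0.158), Bbc3 (0.172) and Bloc1s6 (0.175), with log2 fold changes of 3, 3.45 and 2.73.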

How the data were processed

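RNA was measured in 9 libraries (TruSeq, poly(A) selected, paired ends), per the labels. The build mm9 and the tools STAR 2.3, HTSeq and edgeR are named, without their settings, in the submitters' processing notes. Annotation and strand setting: not given in the sources used here. Raw read counts per Ensembl gene were deposited by the authors, and 14026 of 14052 identifiers matched a symbol. Genes were kept by filterByExpr (minimum count 10, minimum total 15), scaled by TMM and fitted with edgeR 4.0.16 (quasi-likelihood, group as the only term) in R 4.3.3, with Benjamini-Hochberg adjustment over 7020 genes. The fit was tested on simulated data of 6923 genes. It recovered 55.2%, 83.6% and 98.5% of genes changed 1.5-, 2- and 4-fold, with 7 false among 165 calls. Far fewer genes were changed there than were called in these data, so the scaling was not tested under so many changes. A 0 allows up to 0.409 to 0.649 CPM (3 counts), for counting error only. Alternatives were other scalings and filters, DESeq2 1.42.0, limma-voom (3.58.1), the area letter as a covariate, and areas left out. Overlaps, motifs and plots used Python 3.11.15, pandas 2.3.3, numpy 2.4.6 and matplotlib 3.10.9. The members, lists and tests were chosen with earlier results of these data known. All members are named; from each list the 4 called genes with the largest changes in each direction carry values, and untested genes are named, apart from 2 that are not reported here. Genes named for a lost call were chosen after their values were seen. Marker lists are given by counts and sums.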

Additional observations from a re-analysis of the deposited data

Results flagged for a closer look

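In 76 sets of areas (38 clock genes in each group) 4 held an area that stood apart from the others by the gap to its neighbour, and chance flags about 1 in 20. Cry1 stood at 4.36 CPM in tumour R4, against 2.35 to 2.78 CPM in the other tumour areas. Arntl stood at 30.7 CPM in tumour R2, where the other 4 ranged over 33.8 to 34.7 CPM, and at 27.6 CPM in normal R1, against 29.96 to 30.4 CPM in the other normal areas. Csnk1e stood at 2.99 CPM in normal R1, against 4.91 to 5.19 CPM in the other normal areas.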

How the results depend on the processing

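Over 19 alternatives, 9 of which left out 1 area each, all 10 members kept the sign of their log2 fold change. An adjusted p of 0.05 was passed in all 19 by 9 members and in 7 by Arntl. Arntl missed it with RLE scaling (0.0596 in edgeR), no filter (0.0614) and DESeq2 (0.104), among others. Arntl also missed it without any 1 of tumour R3, R4 and R5 and normal L1, L2, R1 and R2 (0.0604 to 0.126). The members carry no test, so these counts describe the settings and are no support. Cry2 moreover passed the filter through the normal areas. With library size alone every gene shifted, the median of all tested genes by 0.29, and the members read -1.42 (Per1), -3.29 (Per2), -2.27 (Cry1), -1.37 (Clock), 0.48 (Arntl), 3.31 (Nr1d1), -0.15 (Nr1d2), -1.49 (Hlf) and -1.37 (Usp2). With that scaling 3735 of all genes were higher and 1689 lower, against 2760 and 2476. With 1 area left out Arntl ranged from 0.15 to 0.23. Of the related genes, Csnk2a1 (0.16), Btrc (0.16), Wdr5 (0.14), Crebbp (0.09) and Kmt2a (0.17) read higher with library size alone. Arntl2 gave no value in the 5 alternatives where it fell under the filter. No paired analysis was possible because the groups share only 1 area name, R2. The low counts of Cry1 and Cry2 limit their precision most.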
